A study of Mus musculus with 14 samples.

Results

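Messenger RNA of 8 genes that mark basophils, mast cells and eosinophils was followed through 14 bulk RNA sequencing libraries, each from a flow-sorted population of mouse bone marrow. The genes were taken by symbol from both deposited tables: the proteases Cpa3, Mcpt8 and Prss34, the receptor subunits Ms4a2 and Fcer1a, the enzyme Hdc, the granule protein Prg2 and the transcription factor Gata2. All 8 were present among the 17118 genes of the macrophage and monocyte table and among the 24980 genes of the dendritic cell table. The cells came from mice with a GFP reporter in one copy of the chemokine receptor gene Cx3cr1, which every group shared and which the series' design text calls wild type. Macrophages (3 libraries, baseline) were sorted as GFP-negative, MHC class II-high and CD169-positive, and monocytes (3 libraries, baseline) as GFP-high and CD115-positive at any level of Gr-1. GFP-high dendritic cells, also high in MHC class II and CD11c, came from mice dosed once with PAM3CSK4 (4 libraries) or vehicle (4 libraries). PAM3CSK4 is a lipopeptide made to engage Toll-like receptors 1 and 2. B220-positive cells were left out of all populations, and Gr-1-positive cells out of macrophages and dendritic cells. The gates held no antibody against a basophil, mast cell or eosinophil antigen. The labels name neither the dose, the time of collection nor the mice behind each library.

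Basophils and mast cells carry the high-affinity IgE receptor, whose alpha chain binds the antibody and whose beta chain amplifies the signal, and on crosslinking they release histamine and proteases from granules. Eosinophils store basic proteins such as major basic protein and form in the marrow under interleukin 5. GATA2 is a transcription factor of blood stem cells and progenitors that basophils and mast cells retain.

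Expression is given in CPM, which is scaled to a library total but not to gene length, so levels are compared between libraries and not between genes. The values of a library summed to 350368 to 578711 CPM over the listed genes. If the smallest step between low values is 1 read or fragment, 1 CPM stood for 33.4 to 75.1 of them in macrophages, 49.9 to 56.5 in monocytes, 28.2 to 65.3 with PAM3CSK4 and 37.9 to 71.6 with vehicle. The 5 monocyte markers checked (Cx3cr1, Csf1r, Ly6c2, Ccr2, Fn1) summed to 304 to 687 CPM in macrophage libraries and 6102 to 7294 CPM in monocyte libraries, and all 5 were lower in macrophages. Of 7 macrophage markers, 2 were higher and 1 lower in macrophages. Siglec1, which encodes CD169, was at 18.9, 18.6 and 25.2 CPM in macrophage libraries and 34.7, 2.20 and 14.1 CPM in monocyte libraries, so that the groups overlapped. PAM3CSK4 replicate 4 stood apart: its 5 dendritic cell markers summed to 260 CPM, against 1316 to 1891 CPM in the other PAM3CSK4 libraries and 2862 to 4026 CPM with vehicle, and its 8 neutrophil markers to 9806 CPM, against 354 to 1363 CPM in the other PAM3CSK4 libraries and 243 to 431 CPM with vehicle.

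Promoter sequences are given for the members on which the comparison of macrophages with monocytes turns: Cpa3 and Ms4a2, which were higher in macrophages, and the basophil proteases Prss34 and Mcpt8, which did not pass the test. Each is the stretch of 250 bases before the RefSeq start of the gene in GRCm38.p6, read 5′ to 3′ on the strand of the gene, with each match to a GATA motif on either strand in capitals. The motif searched was GATA with A or T before it and A or G after it, the letters that GATA factors recognise, and no 2 matches overlapped in the members' windows. The windows are chr3:20242182-20242431 (minus strand) for Cpa3, chr19:11623720-11623969 (minus strand) for Ms4a2, chr17:25298144-25298393 (plus strand) for Prss34 and chr14:56085198-56085447 (minus strand) for Mcpt8.
Cpa3: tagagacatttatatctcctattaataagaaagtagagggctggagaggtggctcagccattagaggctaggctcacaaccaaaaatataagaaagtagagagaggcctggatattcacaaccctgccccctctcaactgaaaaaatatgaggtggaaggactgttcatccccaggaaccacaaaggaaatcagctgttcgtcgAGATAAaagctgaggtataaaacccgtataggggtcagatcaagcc
Ms4a2: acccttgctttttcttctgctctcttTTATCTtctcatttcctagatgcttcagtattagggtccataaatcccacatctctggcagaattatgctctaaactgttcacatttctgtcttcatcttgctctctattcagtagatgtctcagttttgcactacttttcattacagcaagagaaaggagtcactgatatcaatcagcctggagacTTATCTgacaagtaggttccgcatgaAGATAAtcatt
Prss34: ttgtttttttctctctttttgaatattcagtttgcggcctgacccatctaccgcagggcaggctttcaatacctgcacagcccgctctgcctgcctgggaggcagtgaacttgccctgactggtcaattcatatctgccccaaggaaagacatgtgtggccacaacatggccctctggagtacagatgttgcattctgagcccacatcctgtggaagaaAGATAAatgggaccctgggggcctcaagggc
Mcpt8: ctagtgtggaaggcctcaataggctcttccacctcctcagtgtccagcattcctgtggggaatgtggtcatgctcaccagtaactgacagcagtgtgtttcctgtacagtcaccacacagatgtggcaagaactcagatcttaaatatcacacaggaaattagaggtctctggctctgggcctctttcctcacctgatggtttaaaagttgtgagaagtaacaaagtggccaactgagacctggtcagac
The match in Cpa3 began 46 bases before the start and that in Prss34 31 bases before it. Ms4a2 held 3 matches, beginning 224, 37 and 11 bases before the start, and Mcpt8 held none in this window. Of the 7 members with a window in the table, 5 held a match (Cpa3, Ms4a2, Prss34, and also Hdc and Fcer1a), while the 2 windows of Gata2 held none. Among all 32851 windows of this length, 26.5% held at least 1 match and 6.40% held 2 or more. A match describes the letters only, and binding was not measured.

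The first comparison asked how macrophages and monocytes of unstimulated marrow differ in these genes. Cpa3, Gata2, Ms4a2 and Prg2 were higher in macrophages, and none of the 7 members tested was lower. Of the 12188 genes tested with limma on log2(CPM + 1), 20.2% passed an adjusted p of 0.05 in either direction and 12.8% passed as higher and 7.42% as lower in macrophages, so the 4 members stand beside a background that was itself broad. The test was open to genes at 1 CPM or more in 3 of the 6 libraries. Fcer1a did not reach this, and Cpa3 and Ms4a2 did so in 4 libraries, the 3 of macrophages among them. In bulk libraries, fewer cells of a type and less RNA per cell cannot be told apart, here and in the comparisons that follow.

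Among the granule proteases, Cpa3 (chromosome 3, 20215616 to 20242182 in mm10) encodes carboxypeptidase A3, a mast cell protease that basophils also make. Its values were 43.1, 30.6 and 16.1 CPM in macrophage replicates 1 to 3 and 1.47, 0.381 and 0.844 CPM in monocyte replicates 1 to 3. Every macrophage library lay above every monocyte library, as in 20.4% of all genes tested. The log2 change was 3.96 ± 0.38 (SE), or 15.6-fold on the CPM + 1 scale, with limma adjusted p = 3.6e-05. The microRNA gene Mir7007 lies within Cpa3 on the same strand, so reads of the pair cannot be separated.

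Mcpt8 (chromosome 14, 56082164 to 56085198), the mouse basophil protease that antibodies and reporter strains use to mark basophils, was at 10.4, 4.34 and 21.3 CPM in macrophages and 5.64, 3.54 and 4.35 CPM in monocytes. Macrophage replicates 1 and 3 lay above all monocyte libraries, and macrophage replicate 2 lay among them. Its log2 change of 1.02 ± 0.45 did not pass (limma adjusted p = 0.14), and it was 1.55 without macrophage replicate 2 (adjusted p = 0.027) and 0.52 without macrophage replicate 3 (adjusted p = 0.48). The microRNA gene Mir6949 overlaps Mcpt8 on the same strand.

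Prss34 (chromosome 17, 25298394 to 25300162), a serine protease also called mMCP-11 that mouse basophils make, was at 25.9, 0.602 and 36.7 CPM in macrophages and 12.6, 1.46 and 7.56 CPM in monocytes. The groups overlapped, since macrophage replicate 2 held the lowest value of the 6 libraries and replicates 1 and 3 the highest. The log2 change was 0.83 ± 0.98 (limma adjusted p = 0.63). It was 2.27 without macrophage replicate 2 (adjusted p = 0.045) and −0.0077 without macrophage replicate 3 (adjusted p = 0.998), so the value depended on which library was left out.

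Of the IgE receptor subunits, Ms4a2 (chromosome 19, 11615521 to 11623720) encodes the beta chain. It was at 12.3, 9.49 and 6.98 CPM in macrophages and 0.973, 1.18 and 0.806 CPM in monocytes. The macrophage libraries lay wholly higher, as in 20.4% of all genes tested, and the log2 change was 2.39 ± 0.30 (limma adjusted p = 0.00020). Fcer1a (chromosome 1, 173221271 to 173227230), the IgE-binding alpha chain, was at 1.38, 0.0001 and 1.05 CPM in macrophages and 0.159, 0.341 and 0.0564 CPM in monocytes. The value 0.0001 is the lowest in the tables, so Fcer1a is listed at 0 in macrophage replicate 2. Macrophage replicates 1 and 3 lay above the monocytes and replicate 2 below them, and Fcer1a was not tested.

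Hdc (chromosome 2, 126593660 to 126618679) encodes histidine decarboxylase, the enzyme that makes histamine. It was at 28.5, 15.3 and 15.2 CPM in macrophages and 11.4, 11.1 and 9.40 CPM in monocytes. All macrophage libraries lay above all monocyte libraries, as did those of 20.4% of all genes tested, but the log2 change of 0.77 ± 0.30 did not pass (limma adjusted p = 0.0998, 95% interval 0.11 to 1.43). It passed after each library was rescaled to a common total (adjusted p = 0.025), a setting that moved the median log2 change of all genes to 0.26 from 0.10 in the values as deposited.

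Prg2 (chromosome 2, 84980461 to 84983633), eosinophil major basic protein, was at 174, 117 and 643 CPM in macrophages and 16.1, 4.59 and 33.8 CPM in monocytes. The groups did not overlap, and replicate 3 was the highest of both groups. The log2 change was 3.99 ± 0.65 (limma adjusted p = 0.0011). Gata2 (chromosome 6, 88193891 to 88207033) was at 113, 69.6 and 29.2 CPM in macrophages and 4.56, 2.68 and 3.08 CPM in monocytes. Again no libraries overlapped, and 20.4% of all genes tested lay wholly higher in macrophages, as Prg2 and Gata2 did. The log2 change of Gata2 was 3.84 ± 0.42 (limma adjusted p = 7.9e-05). The calls of Cpa3, Gata2, Ms4a2 and Prg2 held under all 12 other settings tried.

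**Figure D1:**
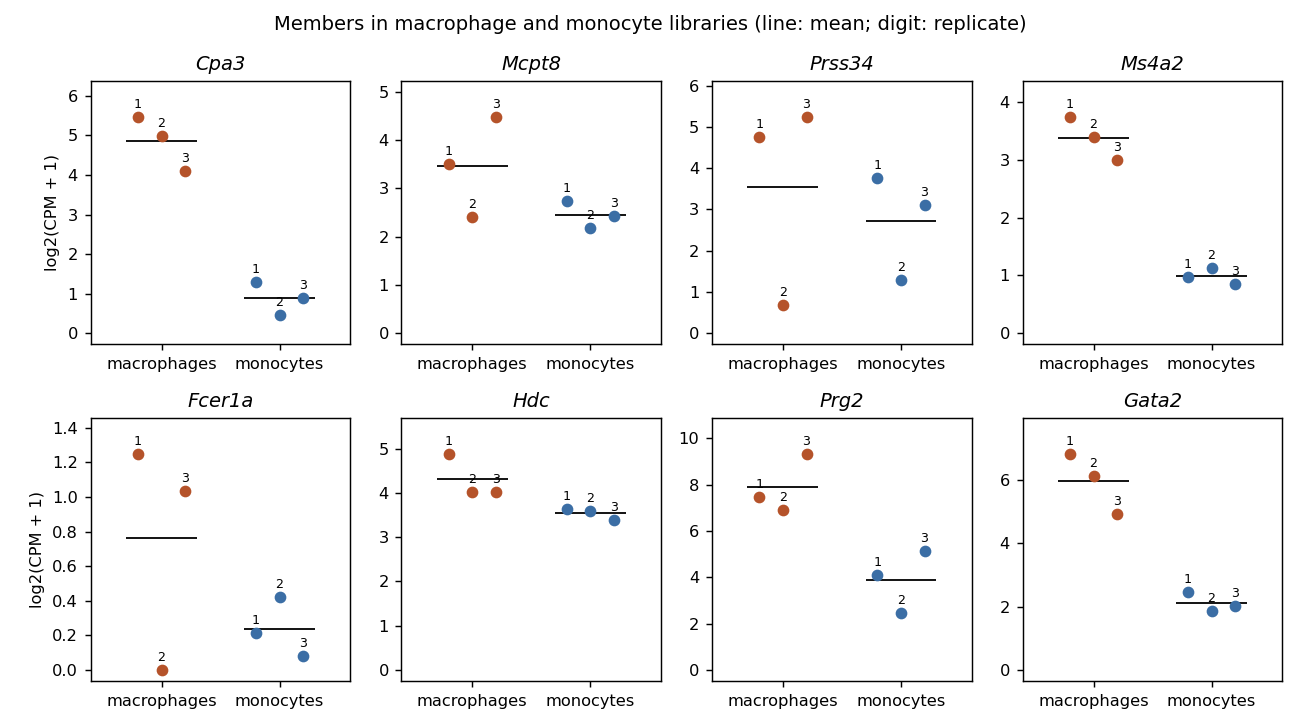
Each panel plots log2(CPM + 1) of one member in the 3 macrophage libraries (left) and the 3 monocyte libraries (right), with the replicate number above each point and a line at the group mean. Cpa3, Ms4a2, Hdc, Prg2 and Gata2 do not overlap between the groups, while Mcpt8, Prss34 and Fcer1a overlap because of macrophage replicate 2. Over all genes tested, 20.4% lay wholly higher and 13.8% wholly lower in macrophages.

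The 7 members tested had a median log2 change of 2.39, beside 0.10 over all genes tested, and all 7 were above 0, as were 57.4% of all genes tested. Their libraries did not follow one order. Cpa3, Gata2 and Ms4a2 were highest in macrophage replicate 1 and lowest of the macrophages in replicate 3, whereas Mcpt8, Prss34 and Prg2 were highest in replicate 3 and lowest of the macrophages in replicate 2. All 8 members together summed to 408, 247 and 770 CPM in macrophages and 52.9, 25.3 and 59.9 CPM in monocytes.

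Markers of several other cell types moved in the same direction, in a comparison where 12.8% of all genes tested passed as higher and 7.42% as lower. Stem and progenitor markers (6 of 7 higher) summed to 1311, 731 and 486 CPM in macrophage replicates 1 to 3 and 103 to 291 CPM in monocyte libraries. Their sums had the order of Cpa3, Gata2 and Ms4a2 over the macrophage libraries, as did those of early granulocyte and of T and NK cell markers. Megakaryocyte markers (6 of 6 higher) summed to 86.6 to 253 CPM in macrophages and 2.96 to 11.7 CPM in monocytes. Erythroid markers (7 of 7 higher) summed to 82.8, 103 and 556 CPM in macrophage replicates 1 to 3 and 5.37 to 51.4 CPM in monocytes. Plasma and B cell markers (5 of 5 measured higher) summed to 2154, 452 and 7646 CPM in macrophage replicates 1 to 3 and 0.938 to 9.80 CPM in monocytes. These sums had the order of Mcpt8, Prss34 and Prg2 over the macrophage libraries, and the erythroid sums were also highest in replicate 3. Neutrophil markers (6 of 7 tested higher) summed to 866 to 2768 CPM in macrophages and 234 to 503 CPM in monocytes, while early granulocyte markers (4 of 5 lower) summed to 778 to 1386 CPM in macrophages and 2440 to 3159 CPM in monocytes. Their part in the values of the 8 members was not tested.

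Genes of related lists were read in the same comparison, where 12.8% of all genes tested passed as higher and 7.42% as lower. Some listed genes, such as Rab27b, Itga2 and Lat, were under 1 CPM in all monocyte libraries. Only their macrophage values opened the test to them, so the counts of higher genes are in part set by the filter. The first list is that of eosinophil genes. Of the 11 listed, 10 were tested, and 9 were higher in macrophages and none lower, with a median log2 change of 3.21. Ccr3, the eotaxin receptor, was at 18.4, 26.2 and 30.2 CPM in macrophages and 1.10, 0.160 and 1.46 CPM in monocytes (log2 change 3.81 ± 0.35, limma adjusted p = 3.0e-05). The lipid-oxidising enzyme Alox15 was at 22.6, 63.1 and 110 CPM in macrophages and 0.407, 1.38 and 4.89 CPM in monocytes (log2 change 4.35 ± 0.58). Both lay wholly higher in macrophages, as did 20.4% of all genes tested. Both were highest in replicate 3, as Prg2 was, but lowest of the macrophages in replicate 1, while Prg2 was lowest in replicate 2. Ear1 and Ear6, eosinophil-associated ribonucleases, had log2 changes of 4.69 ± 0.65 and 4.35 ± 0.73, and Ear2 did not pass (1.37 ± 0.51, limma adjusted p = 0.084). The Ear genes are near-identical in sequence, so their values are uncertain. The eosinophil count was also 9 without macrophage replicate 2.

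Of 15 mast cell genes, 8 were in the table and 5 were tested. Of these, 4 were higher in macrophages and 1 lower (median log2 change 2.12), beside 12.8% and 7.42% of all genes tested. Il1rl1, the interleukin 33 receptor, was at 30.2, 20.2 and 20.3 CPM in macrophages and 1.91, 1.46 and 1.20 CPM in monocytes (log2 change 3.27 ± 0.30, limma adjusted p = 2.7e-05). Rab27b, a GTPase of granule secretion, changed by 3.50 ± 0.42, the prostaglandin D2 synthase Hpgds by 2.08 ± 0.33 and Kit, the stem cell factor receptor, by 2.12 ± 0.38. Kit also stands in the stem and progenitor list. Mitf, a transcription factor of mast cells and of other lineages, was the gene that fell (−1.22 ± 0.30, limma adjusted p = 0.013), and it is named after its value was seen. It did not pass without macrophage replicate 2, which left 4 higher and 0 lower. The mast cell chymase Cma1 was at the lowest value in all 6 libraries, and Mcpt2 reached at most 0.235 CPM.

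Basophil genes did not move as one. Of 13 listed, 8 were tested, with 3 higher and 2 lower in macrophages, beside 12.8% and 7.42% of all genes tested. Their median log2 change was −0.02, beside 0.10 over all genes tested. Itga2, the integrin CD49b, was at 10.2, 13.8 and 8.31 CPM in macrophages and 0.654, 0.861 and 0.806 CPM in monocytes (log2 change 2.71 ± 0.30, limma adjusted p = 7.9e-05). Il18rap, a subunit of the interleukin 18 receptor, changed by 2.42 ± 0.34, and Slc18a2, the transporter that loads histamine and other amines into granules, by 2.12 ± 0.51. The 2 that fell were Csf2rb2 (−1.06 ± 0.25), the interleukin 3 receptor beta chain, and Csf2rb (−1.29 ± 0.31), the chain shared by the receptors of interleukin 3, interleukin 5 and GM-CSF. They are close paralogs whose reads may have been split, and Csf2rb is named after its value was seen. Without macrophage replicate 2, 2 genes were higher (Itga2, Il18rap) and 1 lower (Csf2rb2), while without macrophage replicate 1 Csf2rb2 did not pass (adjusted p = 0.051). The call of Slc18a2 was lost without macrophage replicate 1, without macrophage replicate 2 and after quantile normalization (adjusted p up to 0.092). Cyp11a1, a steroid-making enzyme that basophils express, was below the filter at 1.97, 0.675 and 3.39 CPM in macrophages and 0.336, 0.0001 and 0.300 CPM in monocytes.

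Downstream of the IgE receptor, 13 of 13 signalling genes were tested, of which 2 were higher and 6 lower in macrophages (median log2 change −0.68). The count of higher genes is near the share over all genes tested, 12.8%, while 7.42% of all passed as lower. Fcer1g, the gamma chain that the IgE receptor shares with other Fc receptors, was at 34.5, 22.6 and 31.8 CPM in macrophages and 136, 138 and 124 CPM in monocytes (log2 change −2.15 ± 0.24, limma adjusted p = 9.2e-05). The beta chain Ms4a2 thus had the opposite sign to the gamma chain in the same libraries. Lat, an adaptor of mast cells and T cells, was at 15.6, 10.3 and 9.54 CPM in macrophages and 0.371, 0.0001 and 0.206 CPM in monocytes (log2 change 3.41 ± 0.31), and the phospholipase Plcg1 changed by 1.80 ± 0.29. The adaptor Gab2 fell by 1.44 ± 0.25 on the log2 scale. T and NK cell markers, 4 of 5 higher, summed to 77.2 to 228 CPM in macrophages and 10.7 to 24.9 CPM in monocytes, and their part in the value of Lat was not tested. Of 5 genes of histamine handling, 3 were tested, and Slc18a2 alone passed, a count near the background of 20.2% in a list of this size.

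Among 10 partners of GATA factors and regulators of progenitors, 6 were higher and 1 lower in macrophages (median log2 change 1.87). The shares over all genes tested were 12.8% and 7.42%. Ikzf2, which encodes Helios, changed by 3.80 ± 0.31, Zfpm1, the GATA cofactor FOG1, by 4.16 ± 0.39, Gfi1b by 3.05 ± 0.32 and Tal1 by 2.75 ± 0.29 (limma adjusted p at most 5.9e-05). Zfpm1 was at 146, 92.1 and 85.2 CPM in macrophages and 7.50, 2.06 and 6.99 CPM in monocytes. Both groups stood apart in it, as they did in Gata2, and 20.4% of all genes tested lay wholly higher in macrophages. Cebpa, a granulocyte and monocyte factor named after its value was seen, fell by 1.49 ± 0.33. Several of these regulators also serve stem cells, megakaryocytes and red cell precursors, whose markers were higher in the same libraries.

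**Figure D2:**
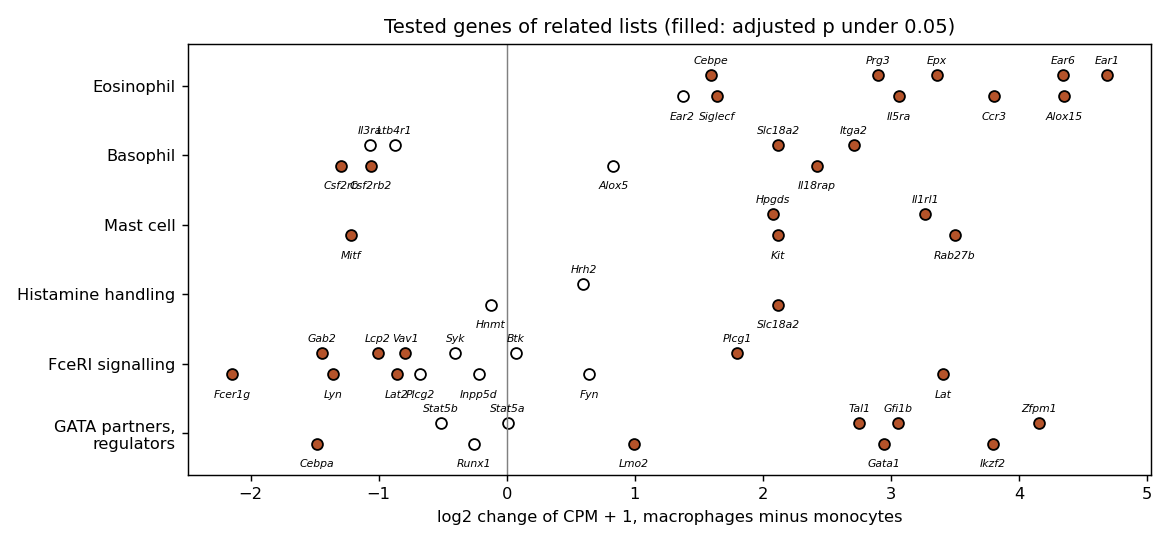
Points are tested genes of 6 lists, with the log2 change of CPM + 1 in macrophages minus monocytes on the horizontal axis and filled points past an adjusted p of 0.05. Eosinophil genes lie to the right of 0, of which 9 of 10 passed, while 6 of 13 genes of IgE receptor signalling passed as lower. Over all genes tested, 12.8% passed as higher and 7.42% as lower. Slc18a2 stands in the basophil and the histamine list.

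The second comparison asked how dendritic cells respond to PAM3CSK4. None of the 7 members tested passed the limma test, and none had an unadjusted p under 0.05. Fcer1a was below the filter and was not tested. The alternatives also gave 0 members, in a comparison where 5.12% of the 11377 genes tested passed (2.82% higher and 2.29% lower). In every member the libraries of the groups overlapped, which is near the background in a list of this size. Of all genes tested, 10.1% lay wholly higher and 4.68% wholly lower with PAM3CSK4. The spread within the PAM3CSK4 group was wide, because replicate 4 was the highest of all 8 libraries in 7 of the 8 members. In all 8 members, the highest of the other 3 PAM3CSK4 libraries was at or below the highest vehicle library.

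The proteases showed this most plainly. Cpa3 was at 0.742, 2.66, 1.59 and 12.9 CPM in PAM3CSK4 replicates 1 to 4 and 3.63, 2.22, 2.66 and 2.99 CPM in vehicle replicates 1 to 4. PAM3CSK4 replicate 4 lay above all vehicle libraries and replicates 1 and 3 below them. Its log2 change was 0.02 ± 0.51 with all libraries and −0.59 without PAM3CSK4 replicate 4 (limma adjusted p = 0.99 and 0.25).

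Mcpt8 was at 2.71, 6.77, 3.53 and 53.4 CPM with PAM3CSK4 and 9.16, 6.14, 4.57 and 13.8 CPM with vehicle (log2 change 0.06 ± 0.69, and −0.79 without PAM3CSK4 replicate 4). Prss34 was at 6.09, 13.7, 7.83 and 137 CPM with PAM3CSK4 and 28.9, 11.4, 11.0 and 38.2 CPM with vehicle (log2 change −0.11 ± 0.78, and −1.07 without PAM3CSK4 replicate 4, limma adjusted p = 0.14). In both, PAM3CSK4 replicate 4 was highest and vehicle replicate 4 next.

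For the receptor, Ms4a2 was at 0.623, 1.49, 1.21 and 5.53 CPM with PAM3CSK4 and 0.678, 0.842, 1.51 and 2.56 CPM with vehicle (log2 change 0.27 ± 0.41, and −0.14 without PAM3CSK4 replicate 4). Replicate 4 of each group was the highest of its group. Fcer1a was at 0.0474, 0.921, 0.562 and 1.35 CPM with PAM3CSK4 and 0.0001, 1.37, 0.562 and 0.251 CPM with vehicle, reached 1 CPM in 2 libraries and was not tested. Here vehicle replicate 2, not PAM3CSK4 replicate 4, was the highest.

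Hdc was at 1.70, 5.46, 4.62 and 47.3 CPM with PAM3CSK4 and 3.70, 2.93, 2.04 and 5.93 CPM with vehicle. PAM3CSK4 replicate 1 lay below all vehicle libraries, replicates 2 and 3 lay among them and replicate 4 above them. The log2 change was 0.90 ± 0.68 (limma adjusted p = 0.43) and 0.05 without PAM3CSK4 replicate 4. Prg2 was at 14.0, 16.7, 1.02 and 110 CPM with PAM3CSK4 and 0.307, 19.9, 20.0 and 45.2 CPM with vehicle, so that one library of each group stood far below the others. Its log2 change was 0.29 ± 1.17, and −0.65 without PAM3CSK4 replicate 4. Gata2 was at 0.848, 2.23, 1.64 and 20.2 CPM with PAM3CSK4 and 4.07, 3.19, 1.70 and 6.31 CPM with vehicle. Its replicates 1 to 3 with PAM3CSK4 lay within or below the vehicle libraries, and its log2 change of −0.08 ± 0.63 became −0.85 when PAM3CSK4 replicate 4 was left out (limma adjusted p = 0.15).

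**Figure D3:**
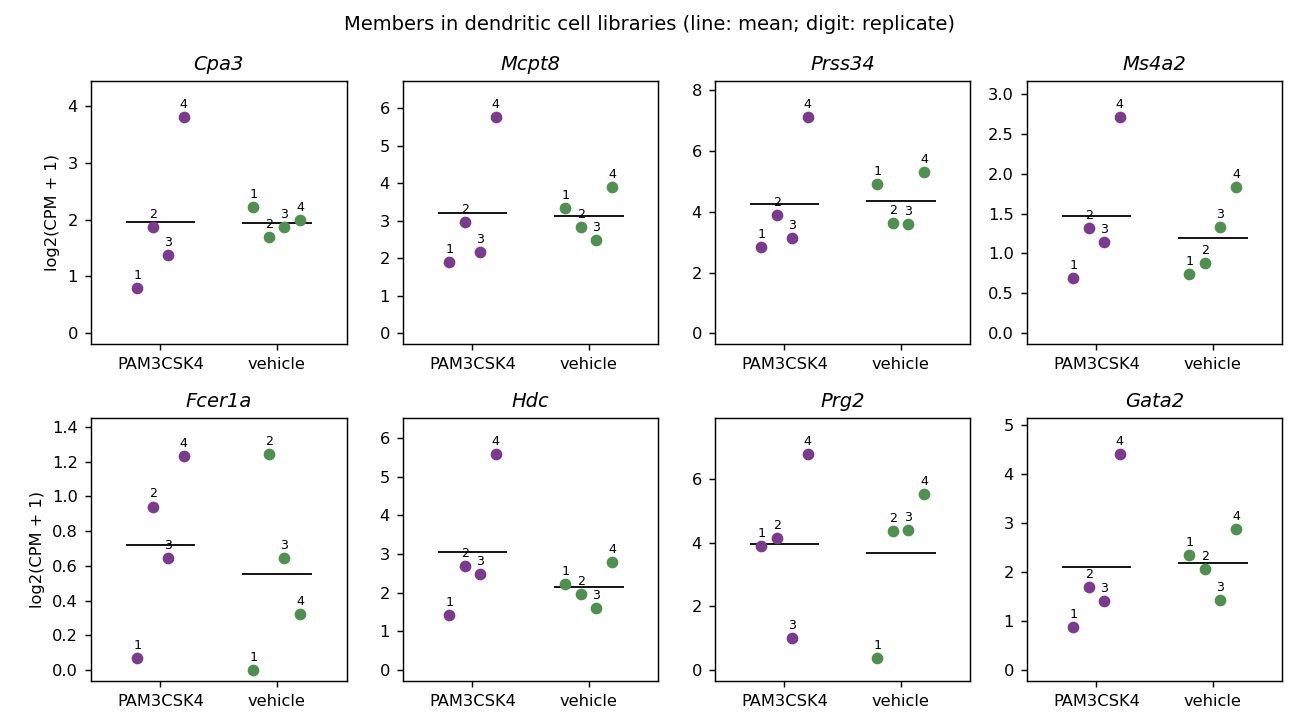
Each panel plots log2(CPM + 1) of one member in the 4 dendritic cell libraries after PAM3CSK4 (left) and the 4 after vehicle (right), with the replicate number above each point and a line at the group mean. PAM3CSK4 replicate 4 is the highest point in every panel except that of Fcer1a.

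The 7 members tested had a median log2 change of 0.06, beside 0.20 over all genes tested, and 5 of 7 were above 0, beside 67.3% of all genes tested. The intervals of the changes remained wide, for Mcpt8 from −1.44 to 1.56 and for Prss34 from −1.81 to 1.58 on the log2 scale. Summed over the 8 members, the libraries held 26.8, 49.9, 22.0 and 388 CPM with PAM3CSK4 and 50.4, 47.9, 44.1 and 115 CPM with vehicle. Early granulocyte markers were high in the same library: they summed to 2283 CPM in PAM3CSK4 replicate 4, against 104 to 154 CPM in the other PAM3CSK4 libraries and 162 to 469 CPM with vehicle. Its erythroid markers summed to 816 CPM, against 73.7 to 299 CPM in the other PAM3CSK4 libraries and 16.8 to 140 CPM with vehicle. The part of these markers in the members' values was not tested.

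**Figure D4:**
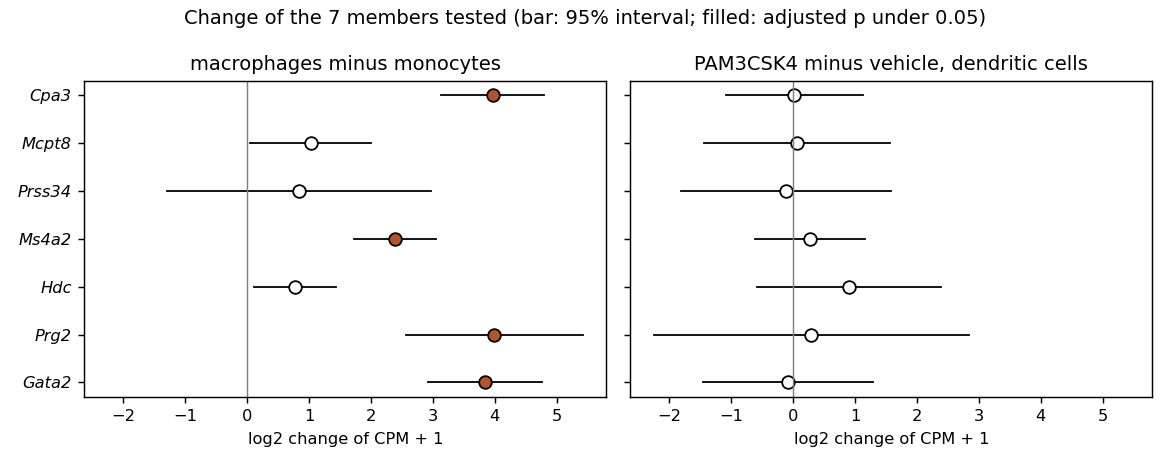
Points give the log2 change of CPM + 1 of the 7 members tested, in macrophages minus monocytes (left) and in PAM3CSK4 minus vehicle (right), with 95% intervals as bars and filled points past an adjusted p of 0.05. Cpa3, Ms4a2, Prg2 and Gata2 are filled on the left, and every interval on the right covers 0.

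Of the genes of the related lists, 3 passed in dendritic cells. This count is near the background in lists of this size, since 5.12% of all genes tested passed there. The 3 genes are described and not read as a result about the lists. Il1rl1 was at 3.42, 1.53, 0.750 and 11.9 CPM with PAM3CSK4 and 20.6, 13.6, 24.2 and 20.2 CPM with vehicle, and was the 1 of 4 tested mast cell genes that passed, as lower (log2 change −2.34 ± 0.50, limma adjusted p = 0.023). All PAM3CSK4 libraries lay below all vehicle libraries, as in 4.68% of all genes tested, with replicate 4 nearest to vehicle. Its call was lost in 6 of 14 other settings, 5 of which left out 1 library (adjusted p up to 0.10). The tryptases Tpsab1 and Tpsb2, the chymases Mcpt1 and Mcpt4 and the receptors Mrgprb1 and Mrgprb2 of connective tissue mast cells were at the lowest value in all 8 libraries.

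Ear2 fell to 13.9, 21.5, 22.2 and 13.0 CPM with PAM3CSK4, against 54.5, 72.3, 32.6 and 39.4 CPM with vehicle (log2 change −1.42 ± 0.29, limma adjusted p = 0.018), the 1 of 8 tested eosinophil genes that passed. Hrh2, the histamine H2 receptor, was at 9.09, 15.4, 15.2 and 10.6 CPM with PAM3CSK4 and 5.82, 6.04, 6.70 and 3.16 CPM with vehicle, and was the 1 of 4 tested genes of histamine handling that passed (1.08 ± 0.27, limma adjusted p = 0.042). Neither gene overlapped between the groups, while 4.68% of all genes tested lay wholly lower and 10.1% wholly higher with PAM3CSK4. The call of Ear2 was lost in 3 and that of Hrh2 in 10 of 14 other settings (adjusted p up to 0.069 and 0.11). No gene passed among 8 basophil genes, 13 genes of IgE receptor signalling and 8 GATA partners, a count near the background of 5.12% in lists of this size. Without PAM3CSK4 replicate 4, the basophil genes Csf2rb2 (1.49) and Ltb4r1 (−2.09) and the adaptor Lcp2 (1.20) passed as well.

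Ratios between members within a library do not depend on how the library was scaled, and these were chosen after the values were seen and not tested. Prss34 stood at 1.73 to 3.15 times Mcpt8 in 12 of 14 libraries, PAM3CSK4 replicate 4 among them. The exceptions were macrophage replicate 2, at 0.139, and monocyte replicate 2, at 0.412. Hdc stood at 0.500 to 0.945 times Cpa3 in macrophages and at 7.76 to 29.2 times Cpa3 in monocytes. In dendritic cells Hdc stood at 2.05 to 3.66 times Cpa3 with PAM3CSK4 and at 0.769 to 1.98 times with vehicle. These ratios did not overlap, but neither gene passed the test and the ratio was picked from several. The other ratios formed between members overlapped between these groups: Prss34 to Mcpt8, Prg2 to Mcpt8, and Gata2, Ms4a2 and Mcpt8 to Cpa3. Prg2 was 16.7 to 30.3 times Mcpt8 in macrophages and 1.29 to 7.76 times in monocytes, and Gata2 was 1.81 to 2.62 times Cpa3 in macrophages and 3.11 to 7.05 times in monocytes.

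**Figure D5:**
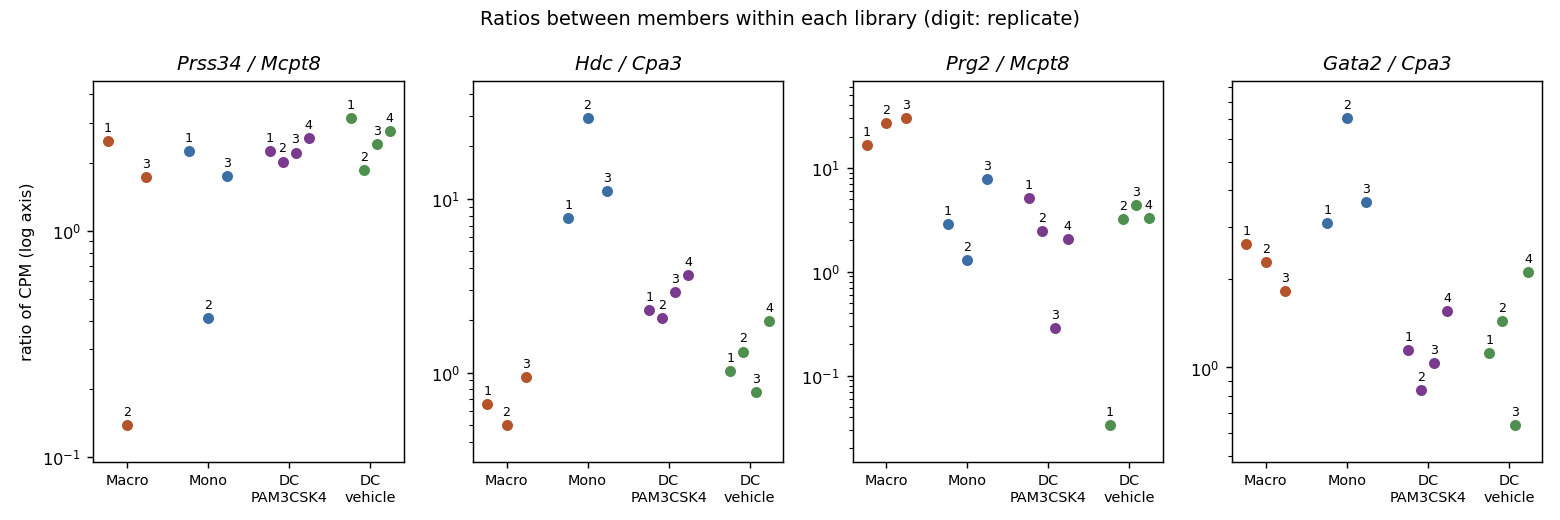
Each panel plots the ratio of the CPM of 2 members in each of the 14 libraries on a log axis, by group, with the replicate number above each point. Prss34 to Mcpt8 is 1.73 to 3.15 in all libraries but replicate 2 of macrophages and of monocytes, and Hdc to Cpa3 is 0.500 to 0.945 in macrophages, a range that holds 1 vehicle library (0.769).

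Across both tables, which were made separately and were not tested against each other, the members fell into different orders. Cpa3, Ms4a2, Prg2 and Gata2 were higher in each of the 3 macrophage libraries than in all 11 other libraries, with the lowest macrophage value at 16.1 CPM for Cpa3 against at most 12.9 CPM elsewhere. For Gata2 these values were 29.2 and 20.2 CPM, for Ms4a2 6.98 and 5.53 CPM and for Prg2 117 and 110 CPM. The share of all genes with this pattern was not computed, so the pattern is not read as particular to these members. Mcpt8, Prss34 and Hdc were instead highest in PAM3CSK4 replicate 4, at 53.4, 137 and 47.3 CPM, against at most 21.3, 36.7 and 28.5 CPM in macrophages. The highest value outside the macrophages was that of PAM3CSK4 replicate 4 in all 7 of these members.

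The genes most like the members were sought by the correlation with the mean of the 8 members' standardised log2(CPM + 1), as a description over libraries that share their depth and cell makeup. Over the 6 macrophage and monocyte libraries these were Rcbtb2, Igsf9b, Dnaaf5, Mettl26 and Bdh1 (Pearson r 0.994 to 0.997), while the members themselves stood between 0.62 for Prss34 and 0.89 for Cpa3. Over the 8 dendritic cell libraries they were Rinl, Bcorl1, Aatk, Psd4 and Serpine2 (r 0.976 to 0.984), and the members stood between 0.59 for Fcer1a and 0.97 for Mcpt8. In dendritic cells this mean is led by PAM3CSK4 replicate 4.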

How the data were processed

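RNA of sorted bone marrow cells was sequenced after depletion of ribosomal RNA, per the labels' protocols. Per the submitters' processing notes the build was mm10 and the tools STAR 2.5.3a and Partek, whose roles no source used here gives. The values were deposited under the name FPKM and were taken here as CPM, scaled to a library total without gene length. This was read from the values: less an offset of 0.0001, low values lie on whole multiples of a step per library that is the same for every gene. Of values up to 50 steps, 66.3% to 69.2% (dendritic cell table) and 88.1% to 90.9% (other table) came within 0.05 steps of such a multiple, too few to recover counts.

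Groups came from the labels. Nothing states that the libraries of 1 group are from different mice, so the p-values speak only to variation among these libraries, part of which may be technical. A further 3 columns of the macrophage and monocyte table match no sample by name and were not used, so dendritic cells were not tested against the other populations. Each comparison used limma 3.58.1 (R 4.3.3, lmFit and eBayes with trend) on log2(CPM + 1). The test was two-sided, p-values were adjusted by Benjamini and Hochberg's method across the tested genes of the table, and genes under 0.05 were called. Genes were tested if they reached 1 CPM in 3 libraries (macrophages against monocytes) or 4 (dendritic cells). Log2 changes understate those of low genes. Tested on simulated data, the limma procedure called 20.9% of genes changed by 1 on the log2 scale and 83.6% of those changed by 2 for macrophages against monocytes (12188 genes), and 34.3% and 85.1% for dendritic cells (11377 genes). The simulated noise was normal, and the changed genes were drawn from those with a mean log2(CPM + 1) above 3. Several members lay below that level in dendritic cells, so these rates do not carry over to them.

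All 8 members are named, and of each list up to 4 genes in order of unadjusted p. The members and lists were chosen with earlier results of these data known. Gene coordinates are those of the authors' tables. Several differ from those of the GENCODE annotation, which lists all 8 as protein-coding. Whether counting used strand is not given. Promoters come from RefSeq (GRCm38.p6), which matched 7 of 8 members. Alternatives varied the pseudocount (0.1), the filter, the scaling, the replicate block and each library left out. The list counts without macrophage replicate 2 or PAM3CSK4 replicate 4, and the settings tried on list genes, were added after the data were seen.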

Additional observations from a re-analysis of the deposited data

Results flagged for a closer look

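In 6 of the 16 groups of 4 dendritic cell libraries checked (8 members, with PAM3CSK4 and with vehicle), 1 library lay far from the other 3. The check used CPM and not the log2 scale of the tests, on which the gap to a high library is a smaller part of the range. Chance gives such a gap in about 1 in 20 groups only where values are normally distributed, which was not checked. The 6 are not independent because the library was PAM3CSK4 replicate 4 each time. The gap to the nearest library, divided by the range of the group, was 0.843 to 0.942, above Dixon's critical value at the 95% level for 4 samples. The values were 12.9 CPM for Cpa3, 53.4 CPM for Mcpt8, 137 CPM for Prss34, 47.3 CPM for Hdc, 110 CPM for Prg2 and 20.2 CPM for Gata2. The same library held 27.5 CPM of Itgax, which encodes CD11c, used in the gate, against 181 to 283 CPM in the other PAM3CSK4 libraries and 170 to 271 CPM with vehicle.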

How the results depend on the processing

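In macrophages against monocytes, between 4 and 6 members passed under the 12 other settings, and 1663 to 3297 genes passed with 1 library left out. The share of calls that were higher was 63.4% as deposited, 72.9% with a common total, 51.3% with median centring and 44.8% with quantile normalization. Prss34 ranged from −0.0077 to 2.27 with 1 library left out. In dendritic cells 0 members passed under any of 14 settings, while the genes called numbered 582 as deposited, 166 with no filter on low values and 184 to 979 with 1 library left out. The higher share was 55.2% as deposited, 41.4%, 29.9% and 35.1% under those scalings.

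In dendritic cells, 6 of the 7 members tested changed sign under at least 1 setting, and the cause was not tested. Hdc did not, at 0.05 to 1.44 over the 14 settings. Cpa3 became −0.13 with a pseudocount of 0.1, −0.10 after rescaling, −0.20 after median centring and −0.14 after quantile normalization. Mcpt8 became −0.00088, −0.070, −0.16 and −0.10 in the same order. With 1 library left out, the ranges were −0.59 to 0.41 for Cpa3, −0.79 to 0.50 for Mcpt8, −1.07 to 0.36 for Prss34, −0.14 to 0.53 for Ms4a2, −0.80 to 1.28 for Prg2 and −0.85 to 0.32 for Gata2.

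Same-numbered libraries are not shown to be pairs: the correlations of their deviations were 0.18, 0.08 and 0.12 for macrophages and monocytes, each library correlating best with its own number, and 0.03, 0.29, −0.12 and 0.30 for dendritic cells. A fit with the replicate block called 976 genes in dendritic cells and changed no call of a member in either comparison. The planned tests of dendritic cells against monocytes and macrophages were not run.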

Other observations

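Epx, eosinophil peroxidase, is no member but was set beside Prg2 after the values were seen, with no test. It stood at 0.230 to 0.299 times Prg2 in macrophages and 0.236 to 0.447 times in monocytes, a narrow range beside the difference in level of either gene. In dendritic cells it stood at 0.417 to 0.774 times Prg2 with PAM3CSK4 and 0.156 to 1.45 times with vehicle. Of the interleukins of basophils, Il4 was at 0.568, 1.64 and 0.838 CPM in macrophages and at the lowest value in all monocyte libraries, and was not tested, because it fell below the filter. Il13 reached at most 0.389 CPM in macrophages and 0.106 CPM in monocytes.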
